A study of Mus musculus with 16 samples.

Results

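The genes described here encode the ligands, receptors, antagonists and intracellular transducers of bone morphogenetic protein (BMP), transforming growth factor beta (TGF-beta) and activin signalling, in fetal mouse hearts with or without a deletion of Meis1 and Meis2. The rule for members uses gene symbols and no measured value: the symbols of the Bmp, Bmpr, Tgfb, Tgfbr, Smad, Inhb, Acvr and Gdf families with Inha, Id1 to Id4, Nog, Chrd, Fst, Fstl1, Fstl3, Bmper, Bambi, Smurf1, Smurf2 and further antagonists. This gave 55 of the 16118 genes with values, of which 51 had a mean level of at least 1 CPM (read counts scaled to a common library size) over the 16 libraries and were tested among 13950 genes. The 4 members below that level were Gdf7, Gdf1, Gdf2 and Gdf9, with means over the 16 libraries between 0.170 and 0.75 CPM, and 10 further symbols of the rule, among them Bmp8a and Gdf5, were not analysed here.

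RNA was measured by poly(A) RNA-seq in atria and ventricles of 8 embryos at E15.5, after removal of the outflow tract. These gave 4 groups of 4 libraries, and the atrium and the ventricle of each embryo were sequenced separately. The double-knockout (dKO) embryos were Meis1 flox/flox; Meis2 flox/flox and carried 1 copy of the alpha-MHC-Cre transgene, whose promoter is active in cardiomyocytes. Control embryos carried the same floxed alleles on both chromosomes and no Cre transgene. Other cell types of the heart therefore keep both genes in dKO embryos, and the presence of Cre cannot be told apart from the deletion. The labels speak of 4 litters with 1 control and 1 dKO fetus from each, while the sample titles begin with 3 different numbers that do not pair controls and dKO embryos 1 to 1, and the meaning of these numbers is not given. The series text speaks of constitutive or inducible deletion, and the genotypes name the alpha-MHC-Cre transgene only.

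As background, BMP, TGF-beta and activin ligands are secreted dimers that bring together type II and type I receptor kinases at the cell surface. The activated type I receptor phosphorylates receptor Smads, Smad1, Smad5 and Smad9 for most BMPs and Smad2 and Smad3 for TGF-beta and activin, and these enter the nucleus with Smad4. Inhibitory Smads (Smad6 and Smad7) and the Id genes are induced by the pathway, and secreted antagonists such as noggin, chordin and follistatin hold ligands away from receptors. In the developing heart BMP and TGF-beta ligands act in the formation of valve cushions, in the patterning of chamber myocardium and, for Bmp10, in the growth of trabecular myocardium.

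The libraries held 7880189 to 22975051 reads over the listed genes, with the lowest in dKO ventricle replicate 2. All 4 dKO ventricle libraries, at 7880189 to 14281320 reads, were shallower than all 4 control ventricle libraries, at 15635416 to 22975051 reads, so values of low genes carry more counting error in dKO ventricles. Meis1 stood at 40.4 ± 2.61 CPM (mean ± SD, n = 4, as in all values below) in control atria and 26.1 ± 3.19 in dKO atria, and at 41.5 ± 3.96 and 40.9 ± 2.41 CPM in control and dKO ventricles. Meis2 stood at 25.4 ± 2.05 CPM in control atria against 26.5 ± 1.90 in dKO atria, and at 39.2 ± 3.46 against 23.4 ± 2.85 CPM in ventricles. These values cover whole genes rather than the floxed exons, and cells without Cre contribute to them, so they do not check the deletion. Tissue labels matched their markers: 7 atrial myocyte genes summed to 10248 to 12129 CPM in control atria and 1812 to 2317 in control ventricles, and 8 ventricular myocyte genes summed to 609.7 to 1806 and 21002 to 23114.

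To place the members on 1 scale, mean CPM was divided by the length of the gene's merged exons in kilobases. The range was wide. Fstl1, a secreted glycoprotein related to follistatin by sequence, stood highest in both control chambers, at 132 ± 3.35 CPM per kb in atria and 133 ± 4.84 in ventricles. Among the 7 measured BMP ligands, Bmp10 led in control atria at 50.2 ± 7.44 CPM per kb, followed by Bmp7 at 29.1 ± 3.16, while in control ventricles Bmp7 led at 33.6 ± 2.39 and Bmp10 stood at 15.9 ± 1.93. Bmp4, Bmp5, Bmp6 and Bmp2 followed in atria at 8.98, 8.62, 5.76 and 4.44 CPM per kb, and Bmp3 stood at 0.351. Tgfb2 led the TGF-beta ligands, with 12.6 ± 4.05 CPM per kb in control atria and 9.67 ± 0.639 in control ventricles, ahead of Tgfb3 at 9.72 and 6.33.

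Receptors and transducers were measured in both chambers. Bmpr1a, a type I receptor for BMP ligands, stood at 19.8 ± 1.17 CPM per kb in control atria and 22.2 ± 2.15 in control ventricles, and was the highest of the 7 type I receptors in both. The related BMP receptor Bmpr1b stood at 0.351 and 0.15 CPM per kb. Tgfbr2, the type II receptor for TGF-beta, was the highest of the 4 type II receptors, at 9.86 ± 0.481 CPM per kb in control atria and 10.7 ± 0.181 in control ventricles. Smad4, the shared partner of the receptor Smads, stood at 21.4 ± 1.36 and 19.4 ± 1.03 CPM per kb, and the inhibitory Smad6 at 18.7 ± 0.801 and 15 ± 1.83. Id3, which encodes a helix-loop-helix protein that blocks other transcription factors, was the highest Id gene, at 40.0 ± 2.05 and 32.0 ± 3.72 CPM per kb.

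**Figure D1:**
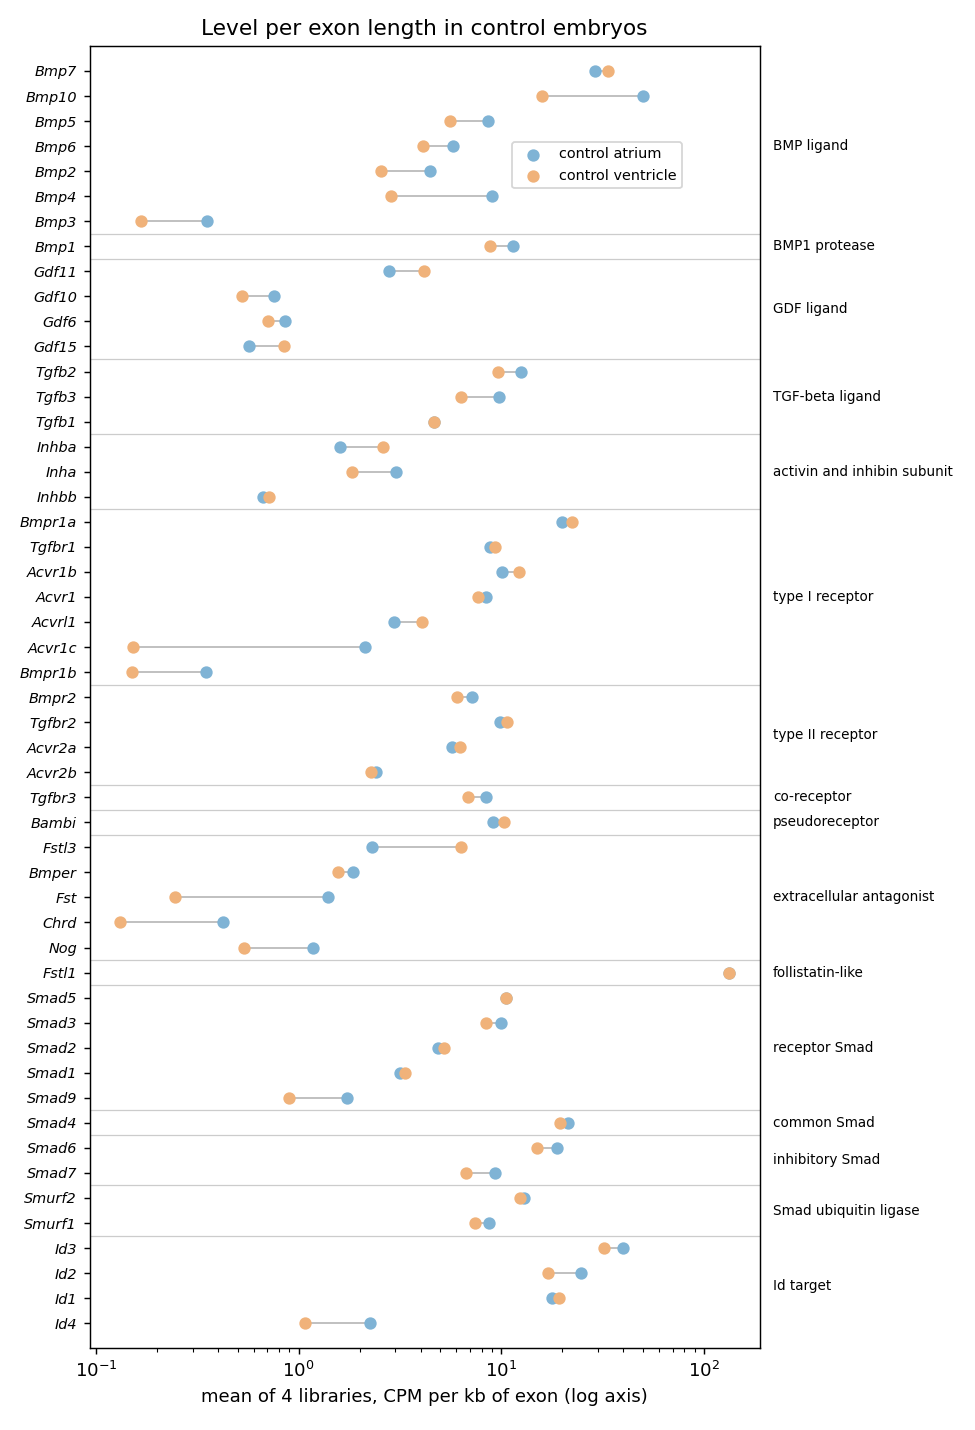
Mean level of each tested member in the 4 control atria (blue) and the 4 control ventricles (orange), in CPM per kb of merged exon on a log axis, with members ordered by role. Fstl1 lies farthest to the right at 132 CPM per kb in atria, and the longest gap between chambers is that of Acvr1c.

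The comparison of control ventricles with control atria asks where these genes are used in the unperturbed fetal heart. Of the 51 members, 30 (58.8%) were called at a Benjamini-Hochberg adjusted p under 0.05 in limma, 5 higher and 25 lower in ventricles, where 46.9% of all 13950 genes were called, 26.4% higher and 20.5% lower. The median log2 difference was -0.23 over the members and 0.03 over all genes. Both chambers came from the same embryos, and the embryo was kept as a random block.

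Of the 7 BMP ligands, 6 were lower in control ventricles. Bmp10, which is known as a product of trabecular cardiomyocytes and later of the atrium, stood at 265, 218, 184 and 233 CPM in the 4 control atria and at 79.8, 73.4, 73.9 and 59.4 CPM in the 4 control ventricles. The groups were far apart, and the ventricular mean was 31.8% of the atrial one (log2 difference -1.64 ± 0.19 (SE), adjusted p = 8.47e-07). Bmp4, a ligand of early cardiac progenitors and the outflow region, stood at 20.4, 21.7, 20.7 and 18 CPM in control atria against 6.32, 4.97, 6.93 and 7.41 in control ventricles (log2 difference -1.53 ± 0.18 (SE), adjusted p = 1.53e-06). Bmp2, Bmp3, Bmp5 and Bmp6 were also lower in ventricles, with log2 differences of -0.77, -0.69, -0.60 and -0.48, and Bmp3 lost its call without control embryo 1, 2 or 3. Bmp7 was the exception, at 117 ± 12.7 CPM in atria and 135 ± 9.59 in ventricles (0.21, adjusted p = 0.0607). Bmp1, a protease that cleaves chordin and procollagens rather than a ligand, was also lower in ventricles (-0.38, adjusted p = 7.93e-05).

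Ligands outside the BMP group were split. Inhba, which encodes the subunit of activin A, was higher in ventricles, at 9.43, 9.11, 11.4 and 11 CPM in control atria and 15.6, 15.3, 20.7 and 15.3 in control ventricles (log2 difference 0.65 ± 0.15 (SE), adjusted p = 0.00154). Inha, the subunit that makes an inhibin in place of an activin, was lower in ventricles (-0.58, adjusted p = 0.00575). Gdf11, a ligand that signals through activin receptors, was higher in ventricles, at 16.9 ± 1.48 against 11.3 ± 0.846 CPM in atria (0.54, adjusted p = 0.000609), and the other 3 tested Gdf genes, Gdf6, Gdf10 and Gdf15, were not called. Of the TGF-beta ligands, Tgfb3 (log2 difference -0.60, adjusted p = 0.000341) and Tgfb2 (-0.33, adjusted p = 0.0487) were lower in ventricles. Tgfb2 stood at 108, 63.8, 62.0 and 57.5 CPM in control atria and 60.0, 51.6, 54.5 and 57.8 in control ventricles, so the groups overlapped and replicate 1 stood apart among the atria. Its call was lost without control embryo 1, 2 or 3 or dKO embryo 1 or 3, without a filter, with a robust variance prior and without the embryo block. Tgfb1 stood at 23.4 ± 0.650 CPM in atria and 23.5 ± 1.83 in ventricles.

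Acvr1c, a type I receptor used by Nodal and some activins, showed the largest chamber difference of all members. It stood at 22.1, 20.9, 19.3 and 16.9 CPM in the 4 control atria and at 1.42, 1.76, 1.79 and 0.677 CPM in the 4 control ventricles. All ventricles lay far below all atria, and the ventricular mean was 7.13% of the atrial one (log2 difference -3.13 ± 0.16 (SE), adjusted p = 2.08e-11). In dKO embryos the level was 20.0 ± 2.88 CPM in atria and 1.57 ± 0.542 in ventricles. Bmpr1b was the other type I receptor lower in ventricles (-0.66, adjusted p = 0.00855), while Acvrl1, an endothelial receptor for Bmp10 and Gdf2, was higher by 0.42 on the log2 scale (adjusted p = 0.000264) and the activin receptor Acvr1b by 0.27 (adjusted p = 0.000774). Among type II receptors Bmpr2 alone was called, with 128 ± 2.6 CPM in atria and 109 ± 4.43 in ventricles (-0.24, adjusted p = 0.0255). Bmpr2 lost its call without control embryo 1, 2 or 4, and Bmpr1b without control embryo 1. The Bmpr1b mean in control ventricles, 0.893 CPM, lay below the 1 CPM filter, which it passed on its mean over all 16 libraries.

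The promoter of Acvr1c is shown because this gene had the largest chamber difference and is 1 of 3 members with the letters TGACAG, the core recognised by MEIS proteins, in a promoter window. Sequences are RefSeq promoters on GRCm38.p6, 250 bases before to 50 bases after the annotated start, printed 5′ to 3′ on the gene's strand. Capitals mark the match, which reads CTGTCA here because it lies on the opposite strand. It is 59 bases before the RefSeq start, in the window chr2:58357709-58358008 (minus strand). GENCODE M21 places the gene at chr2:58267453-58357895, so by those coordinates the match lies inside the gene. Another Acvr1c window, chr2:58324758-58325057, held no TGACAG.
Acvr1c: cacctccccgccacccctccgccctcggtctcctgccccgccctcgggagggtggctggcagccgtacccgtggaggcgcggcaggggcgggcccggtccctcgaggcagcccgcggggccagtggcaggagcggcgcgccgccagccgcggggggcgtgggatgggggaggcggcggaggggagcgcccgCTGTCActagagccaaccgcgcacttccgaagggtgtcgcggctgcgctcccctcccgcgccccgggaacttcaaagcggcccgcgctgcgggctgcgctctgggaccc
Both strands were searched in 47 windows of 39 members and in all 32851 promoters of the table. TGACAG was present in 3 of the 47 member windows (6.38%; Acvr1c, Bmpr1b and Smad6) and in 19.2% of all promoters. The palindrome GTCTAGAC, a Smad-binding box, was in the Smad6 window only (1 of 47) and in 0.213% of all promoters. The GC-rich Smad site GGCGCC was in 13 of the 47 member windows (27.7%) and in 11.9% of all. A match describes the letters and not binding.

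Antagonists diverged between chambers. Fst, which encodes follistatin, an activin-binding protein, stood at 5.12, 5.14, 9.13 and 6.31 CPM in control atria and 1.19, 1.29, 1.17 and 0.860 in control ventricles (log2 difference -1.78 ± 0.18 (SE), adjusted p = 1.88e-07). Fstl3, a follistatin relative that also binds activin, ran the other way, at 5.84, 6.16, 4.76 and 5.72 CPM in control atria and 18.7, 12.3, 16.6 and 14.4 in control ventricles (log2 difference 1.31 ± 0.14 (SE), adjusted p = 5.16e-07). No library of one chamber overlapped the other for either gene. The BMP antagonists Chrd and Nog were lower in ventricles (-0.99, adjusted p = 1.06e-05 for Chrd and -0.64, adjusted p = 0.00918 for Nog), with ventricular means of 0.824 and 0.915 CPM, and Bmper was not called (-0.21). The ventricular means of Chrd and Nog lay below the 1 CPM filter, which these genes passed on their mean over all 16 libraries. Nog lost its call without control embryo 3.

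Inside the cell, both inhibitory Smads were lower in ventricles, with log2 differences of -0.47 for Smad7 (adjusted p = 0.000103) and -0.32 for Smad6 (adjusted p = 0.00341). Of the receptor Smads, Smad3 (-0.24, adjusted p = 0.000673) and the low Smad9 (-0.81, adjusted p = 0.00688) were lower in ventricles, and Smad1, Smad2, Smad5 and Smad4 were not called, with log2 differences between -0.14 and 0.10. Smurf1, a ubiquitin ligase that targets Smads and receptors, was lower (-0.22, adjusted p = 0.00641), as was the TGF-beta co-receptor Tgfbr3 (-0.29, adjusted p = 0.0402). Tgfbr3 lost its call without control embryo 1, 2 or 3, without a filter and without the embryo block, and Smad9 lost its call without control embryo 1. Of the 4 Id genes 3 were lower in ventricles. Id4 showed the largest of these differences, from 8.66 ± 1.34 to 4.14 ± 0.313 CPM (-0.90, adjusted p = 0.000116), ahead of Id2 (-0.52) and Id3 (-0.32), and Id1 was not called (0.12). In bulk tissue a lower share of the cells that make a transcript and less of it per cell cannot be told apart. Summed markers of epicardium (350.4 to 421 CPM in control atria, 109 to 148 in control ventricles), of fibroblasts (4999 to 6714 and 3554 to 4099) and of smooth muscle (756 to 876 and 1589 to 1979) also differed between the chambers, and their part in these differences was not tested. The smooth muscle list includes Acta2 and Tagln and the fibroblast list Col1a1, which are also on the list of TGF-beta response genes used below.

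**Figure D2:**
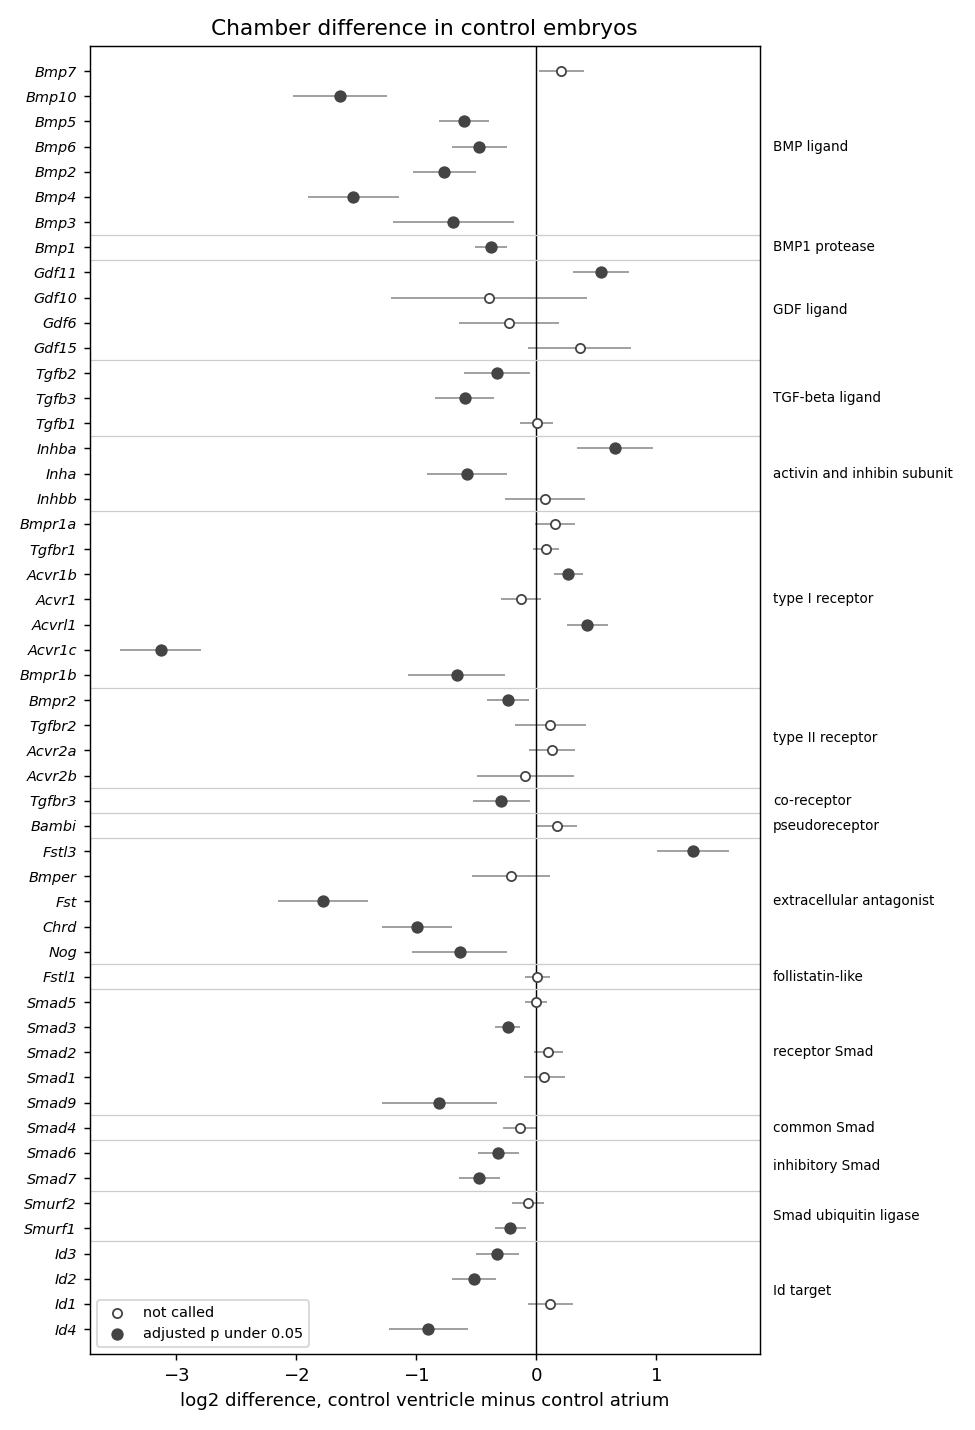
Log2 difference of each tested member between control ventricles and control atria, from log2(CPM + 1), with 95% intervals as bars and filled points for members called at an adjusted p under 0.05. Most filled points lie left of 0, led by Acvr1c at -3.13, and Fstl3 lies farthest right at 1.31.

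In atria, dKO embryos were compared with control embryos, which carried the same floxed alleles and no Cre transgene. Bmp2 and Bmp6 rose and Bmp5 and Bmp10 fell. Inhba, a gene for an activin subunit, and the pathway targets Smad7 and Id3 rose, and Smad3 fell. Of the 51 members 8 (15.7%) were called, 5 higher and 3 lower, against 7.47% of all genes tested, 4.04% higher and 3.43% lower. The median absolute log2 difference was 0.19 over the members and 0.11 over all genes. At an unadjusted p under 0.05 there were 18 members, and the share of all genes at that level was not computed. Leaving out control atrium replicate 1 or 4 or dKO atrium replicate 2 left 4 called members, among 765, 695 and 743 called genes. Leaving out control atrium replicate 3 or dKO atrium replicate 3 left 5, among 839 and 708. Leaving out dKO atrium replicate 4 gave 13, among 1201. The fit of all 8 atria called 1042 genes. With the first title number as a covariate 12 members and 1392 genes were called, the same 8 members with Acvrl1, Fstl3, Id2 and Id4. Fold changes are on the log2(CPM + 1) scale, which understates changes of low genes.

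Of the 7 BMP ligands 4 were called, 2 in each direction. Bmp2, a ligand of the atrioventricular canal that acts on the endocardial cushions, stood at 15.4, 15.9, 16.8 and 15 CPM in the 4 control atria and at 27.9, 29.5, 26.4 and 23.8 CPM in the 4 dKO atria. All dKO atria were above all control atria, and the mean rose to 170.4% of control (log2 difference 0.73 ± 0.081 (SE), adjusted p = 0.000255). Bmp2 lies at chr2:133552159-133562885 (GRCm38, plus strand), and Bmp5 and Bmp10 lie at chr9:75775364-75900310 and chr6:87428994-87437677. Bmp6, a close relative of Bmp5 and Bmp7, rose from 22.1, 24.5, 23.3 and 20.0 CPM to 28.8, 32.3, 26.7 and 32.8 CPM, again without overlap (log2 difference 0.41 ± 0.087 (SE), adjusted p = 0.0161). The exons of Bmp6 share 224 bases with Txndc5 on the opposite strand, and use of strand in counting is not given in the sources used here. The call of Bmp6 was lost without dKO atrium replicate 2 (adjusted p = 0.0541) and among the 2 dKO and 2 control embryos that share the first title number (adjusted p = 0.134).

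Bmp5, expressed in developing myocardium, fell. It stood at 30.7, 31.8, 40.7 and 35.6 CPM in control atria and at 22, 16.9, 19.7 and 15.49 CPM in dKO atria. The highest dKO atrium was well below the lowest control atrium, and the dKO mean was 53.4% of control (log2 difference -0.87 ± 0.12 (SE), adjusted p = 0.000979). Bmp10 stood at 265, 218, 184 and 233 CPM in control atria and at 172, 146, 114 and 81.1 CPM in dKO atria, also apart but with a wider spread among dKO embryos. Its dKO mean was 57.0% of control (log2 difference -0.85 ± 0.20 (SE), adjusted p = 0.0225). This call was lost without control atrium replicate 1, 2 or 4 or without dKO atrium replicate 3 (adjusted p = 0.0688, 0.0583, 0.0683 and 0.0683), and with a robust variance prior (adjusted p = 0.0916). The remaining BMP ligands were not called: Bmp7 stood at 117 ± 12.7 CPM in control and 136 ± 17.5 in dKO atria, Bmp4 at 20.2 ± 1.56 and 24.2 ± 6.72, and Bmp3 at 2.6 ± 0.592 and 1.82 ± 1.13.

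The promoters of Bmp5 (chr9:75775115-75775414, plus strand) and Bmp10 (chr6:87428744-87429043, plus strand) are shown because these ligands fell together in dKO atria. Neither window held TGACAG, GTCTAGAC or GGCGCC on either strand, so no base is in capitals.
Bmp5: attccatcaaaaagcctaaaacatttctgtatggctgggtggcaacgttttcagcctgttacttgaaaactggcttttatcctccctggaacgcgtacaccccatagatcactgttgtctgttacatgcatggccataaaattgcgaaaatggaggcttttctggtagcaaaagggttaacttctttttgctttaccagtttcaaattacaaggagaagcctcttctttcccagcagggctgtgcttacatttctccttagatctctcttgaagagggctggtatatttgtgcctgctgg
Bmp10: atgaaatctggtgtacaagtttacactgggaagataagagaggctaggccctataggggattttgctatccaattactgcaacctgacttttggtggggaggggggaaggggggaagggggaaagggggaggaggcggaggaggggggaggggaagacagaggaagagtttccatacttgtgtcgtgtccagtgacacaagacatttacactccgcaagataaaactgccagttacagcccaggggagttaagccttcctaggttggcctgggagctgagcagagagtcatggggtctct
No window of Bmp2 was in the promoter table used.

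Among the activin and TGF-beta ligands only Inhba was called. It stood at 9.43, 9.11, 11.4 and 11 CPM in control atria and at 11.4, 17.5, 20.4 and 14.9 CPM in dKO atria, so that the lowest dKO atrium met the highest control (log2 difference 0.58 ± 0.15 (SE), adjusted p = 0.0453). The call was close to the threshold and was lost without a filter on low genes (adjusted p = 0.0727), without any 1 control atrium (adjusted p between 0.0605 and 0.127) and without dKO atrium replicate 2, 3 or 4 (0.124, 0.116 and 0.0532). The inhibin subunit genes Inha and Inhbb had log2 differences of -0.19 and 0.052. Tgfb1, Tgfb2 and Tgfb3 had log2 differences of -0.07 (95% interval -0.20 to 0.064), 0.052 (-0.30 to 0.41) and 0.044 (-0.19 to 0.28). Of the Gdf genes, Gdf11 stood at 11.3 ± 0.846 CPM in control and 12.9 ± 2.77 in dKO atria. Gdf10 stood at 3.94 ± 1.89 and 8.76 ± 8.63, where dKO atrium replicate 4 alone reached 21.6 CPM.

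None of the 7 type I or 4 type II receptors was called in dKO atria by the limma fit used here. Acvr1, a BMP type I receptor, was called with a robust variance prior and in DESeq2, and Acvrl1 with the title number as a covariate. Without dKO atrium replicate 1 Acvrl1 was called, without dKO atrium replicate 4 Acvr1, Bmpr1a and Acvr2a were, and Bmpr1a was called among the embryos of the shared title number. At an unadjusted p under 0.05 there were 3, all type I and named after their values were seen: Acvr1 (0.28, adjusted p = 0.0583), Acvrl1 (0.28, adjusted p = 0.121) and Bmpr1a (0.21, adjusted p = 0.235). The share of all genes at that level was not computed. Bmpr1a stood at 122, 129.7, 134 and 118 CPM in control and 157, 166, 148 and 118 CPM in dKO atria, with overlap, and Tgfbr1, the TGF-beta type I receptor, at 57.4 ± 2.42 and 59.2 ± 4.04. Bmpr2 stood at 128 ± 2.6 and 130.4 ± 20.7 CPM and Tgfbr2 at 80.7 ± 3.94 and 90.9 ± 21.8. The co-receptor Tgfbr3 and the decoy receptor Bambi had log2 differences of -0.085 and 0.16.

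No secreted antagonist was called by limma. At an unadjusted p under 0.05 there were 3 of 5, and 18 of all 51 members. The share of all genes at that level was not computed. DESeq2 on recovered reads called Fst and Fstl3, and Fstl3 was also called with the title number as a covariate. Fst, chosen here after its values were seen, stood at 5.12, 5.14, 9.13 and 6.31 CPM in control atria and 2.91, 2.94, 3.89 and 4.98 CPM in dKO atria. Every dKO atrium was below every control, with an adjusted p of 0.0689 (-0.66 on the log2 scale, 95% interval -1.09 to -0.23). Fstl3 stood at 5.62 ± 0.603 and 7.95 ± 1.37 CPM (0.43, adjusted p = 0.0915) and Chrd at 2.64 ± 0.427 and 3.77 ± 0.736 (0.39, adjusted p = 0.173). Bmper and Nog had log2 differences of 0.16 and -0.28.

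Of the 8 Smads 2 were called in dKO atria. Smad7, which binds activated type I receptors and is itself induced by them, stood at 42.3, 38.3, 39.0 and 49.2 CPM in control and 52.2, 59.3, 57.8 and 54.7 CPM in dKO atria. The groups did not overlap, and the mean rose to 133% of control (log2 difference 0.40 ± 0.082 (SE), adjusted p = 0.0117). Its relative Smad6 stood at 60.0 ± 2.57 and 69.6 ± 6.99 CPM, with every dKO atrium above every control (0.21, adjusted p = 0.123). Smad3, a transducer of TGF-beta and activin, fell from 55.6, 54.9, 55.7 and 54.8 CPM to 49.2, 46.7, 47.8 and 44.7 CPM, a small shift between tight groups (log2 difference -0.23 ± 0.052 (SE), adjusted p = 0.0215). Its call was lost without any 1 control atrium (adjusted p between 0.0505 and 0.0641), without dKO atrium replicate 2 or 3 (0.0588 and 0.0534) and among the embryos of the shared title number (0.0809). Smad5, the most abundant receptor Smad by CPM, stood at 78.5 ± 2.66 and 78.9 ± 4.55 CPM, and Smad4 at 79.4 ± 5.03 and 75.8 ± 8.31. The ligases Smurf2 and Smurf1 stood at 80.0 ± 1.99 and 55.0 ± 2.08 CPM in control atria and 86.1 ± 9.84 and 55.9 ± 2.64 in dKO atria.

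Of the Id genes, direct targets of BMP Smads, Id3 (chr4:136143497-136145755) was called. It stood at 70.0, 76.8, 68.3 and 71.7 CPM in control atria and at 83.9, 93.3, 89.3 and 118 CPM in dKO atria, where replicate 4 was highest and no dKO atrium overlapped the controls (log2 difference 0.41 ± 0.094 (SE), adjusted p = 0.023). The call was lost without control atrium replicate 1, 3 or 4 (0.0645, 0.064 and 0.0625) or without dKO atrium replicate 2 (adjusted p = 0.0537). Id1 had a log2 difference of 0.35, adjusted p = 0.0661, and Id2 one of -0.25, adjusted p = 0.164. Id4 stood at 8.66 ± 1.34 and 10.6 ± 2.33 CPM. DESeq2 called Id1, and the fit with the title number as a covariate called Id2 and Id4.

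Markers of cell types also differed in the same atria, where 4.04% of all genes were called higher and 3.43% lower. The 7 atrial myocyte markers summed to 10248 to 12129 CPM in control and 13088 to 14347 in dKO atria, without overlap, and 2 of 7 were called higher and 1 lower. The 8 smooth muscle and pericyte markers summed to 756 to 876 CPM in control and 1035 to 1449 in dKO atria, and 4 of 8 were called higher. Acta2, a gene on this list, made up a large part of that sum, as given below. Fibroblast markers summed to 4999 to 6714 and 5726 to 9744 CPM (2 of 8 called higher), epicardial markers to 350.4 to 421 and 436 to 524 (1 of 8 higher), and macrophage markers to 96.4 to 113 and 94.6 to 157 (1 of 8 higher). Endothelial markers summed to 1159.5 to 1205 and 1049.6 to 1463 CPM (1 of 9 lower), and valve and cushion markers to 937 to 1071 and 1056 to 1208 (0 of 8 called by limma). Ventricular myocyte markers, at 609.7 to 1806 and 339 to 1151 CPM, varied several-fold within each group of atria, and 2 of 8 were called lower. None of these lists had a gene at 0 in atria, and their part in the differences above was not tested. Some markers are also on the lists of TGF-beta or BMP response genes used below. These are Acta2 and Tagln of smooth muscle, Col1a1 of fibroblasts, Postn, Sox9 and Tbx20 of valve and cushion, and Hey2 of ventricular myocytes.

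**Figure D3:**
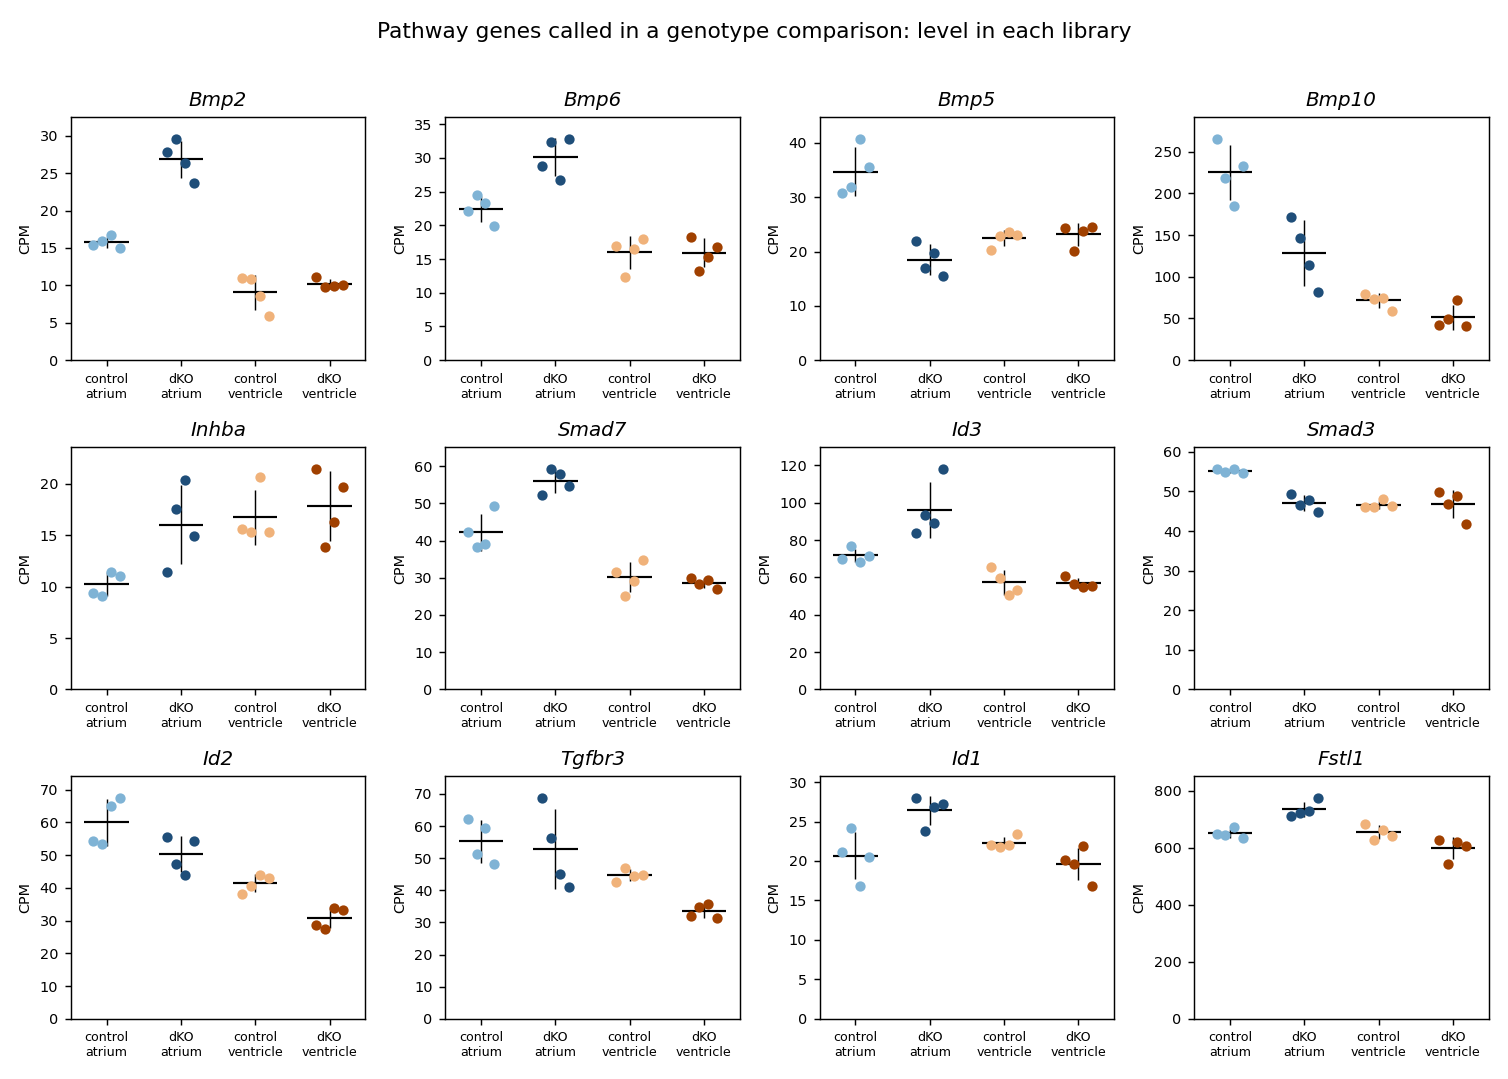
CPM of the 12 members called in a genotype comparison or in the difference between chambers, with 1 point for each of the 16 libraries, a horizontal line for the mean and a vertical line for ± 1 SD. The dKO atria (dark blue) lie above the control atria (light blue) for Bmp2 and below them for Bmp5, and the ventricles (orange and brown) separate by genotype for Id2 and Tgfbr3.

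In ventricles, fewer members differed between dKO and control embryos. Tgfbr3 and Id2 fell, 2 of 51 (3.92%), where 2% of all genes were called, 0.989% higher and 1.01% lower, and no member was called higher. The median absolute log2 difference was 0.10 over the members and 0.08 over all genes. At an unadjusted p under 0.05 there were 8 members, and the share of all genes at that level was not computed. Tgfbr3 encodes betaglycan, a co-receptor that presents TGF-beta ligands, above all Tgfb2, and binds inhibin. It stood at 42.6, 46.9, 44.5 and 44.9 CPM in the 4 control ventricles and at 32.0, 34.7, 35.7 and 31.4 CPM in the 4 dKO ventricles. The groups were apart, and the dKO mean was 74.8% of control (log2 difference -0.41 ± 0.06 (SE), adjusted p = 0.0032). Tgfbr3 lies at chr5:107106570-107289629 (GRCm38, minus strand). Id2 stood at 38.1, 40.6, 44.0 and 43.1 CPM in control and 28.6, 27.5, 33.7 and 33.3 CPM in dKO ventricles, also apart, with a dKO mean of 74.2% of control (log2 difference -0.42 ± 0.078 (SE), adjusted p = 0.0136). Id2 lost its call without control ventricle replicate 3 or 4 (0.0528 and 0.0512), and among the 4 embryos with 1 title number in common neither gene was called (adjusted p = 0.342 for Id2 and 0.211 for Tgfbr3).

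The Id2 (chr12:25096043-25096342, minus strand) and Id3 (chr4:136143572-136143871, plus strand) promoters are shown because these Smad targets were called in different chambers, Id2 lower in dKO ventricles and Id3 higher in dKO atria. For neither gene was the difference between chambers called by limma (adjusted p = 0.631 for Id2 and 0.087 for Id3). The capitals in Id2 mark GGCGCC, 231 bases before the RefSeq start, and the Id3 window holds none of the 3 motifs. GENCODE M21 places Id2 at chr12:25093799-25097140 and Id3 at chr4:136143497-136145755. By those coordinates both windows lie inside the genes.
Id2: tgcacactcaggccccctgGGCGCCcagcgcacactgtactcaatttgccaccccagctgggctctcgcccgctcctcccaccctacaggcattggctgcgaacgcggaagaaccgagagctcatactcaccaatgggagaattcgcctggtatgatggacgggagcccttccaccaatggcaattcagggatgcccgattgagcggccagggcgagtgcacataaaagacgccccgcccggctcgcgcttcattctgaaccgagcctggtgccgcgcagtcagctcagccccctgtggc
Id3: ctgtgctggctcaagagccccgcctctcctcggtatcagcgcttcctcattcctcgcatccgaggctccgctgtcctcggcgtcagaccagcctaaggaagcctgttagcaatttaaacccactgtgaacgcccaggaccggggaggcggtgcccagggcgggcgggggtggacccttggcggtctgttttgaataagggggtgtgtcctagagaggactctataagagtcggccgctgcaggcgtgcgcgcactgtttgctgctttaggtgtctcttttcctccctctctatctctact

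No ligand passed the threshold in ventricles. Bmp10 came nearest, chosen here after its values were seen, at 79.8, 73.4, 73.9 and 59.4 CPM in control and 41.8, 49.3, 72.4 and 41.0 CPM in dKO ventricles (log2 difference -0.51 ± 0.15 (SE), adjusted p = 0.14). dKO ventricle replicate 3 lay within the control range, and without it Bmp10 was called (adjusted p = 0.00545). Bmp2 stood at 9.08 ± 2.37 CPM in control and 10.2 ± 0.659 in dKO ventricles, Bmp5 at 22.4 ± 1.47 and 23.2 ± 2.12, Bmp6 at 16 ± 2.47 and 15.9 ± 2.16, and Bmp7 at 135 ± 9.59 and 121 ± 10.5. The 95% interval of the log2 difference ran from -0.16 to 0.53 for Bmp2, -0.14 to 0.22 for Bmp5 and -0.27 to 0.27 for Bmp6. Inhba stood at 16.7 ± 2.64 and 17.8 ± 3.41 CPM.

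None of the 11 type I and type II receptors was called by limma, or had an unadjusted p under 0.05, and their log2 differences lay between -0.13 (Acvr2a) and 0.20 (Bmpr1b). Bmpr1a stood at 141 ± 13.6 and 143 ± 5.81 CPM and Bmpr2 at 109 ± 4.43 and 116 ± 7.63. Smad7 stood at 30.2 ± 4.02 and 28.6 ± 1.34 CPM, Smad3 at 46.6 ± 1.06 and 46.8 ± 3.61, and Id3 at 57.3 ± 6.66 and 56.9 ± 2.55. Smad5, at 76.4, 79.2, 78.7 and 79.4 CPM in control and 84.7, 85.2, 84.8 and 82.2 CPM in dKO ventricles, separated by genotype by a small margin without a call (0.10, adjusted p = 0.309). Atrial myocyte markers summed to 1812 to 2317 CPM in control and 4072 to 4804 in dKO ventricles (3 of 7 called higher), and ventricular myocyte markers to 21002 to 23114 and 18587 to 20193 (2 of 8 called lower). Of all genes, 0.989% were called higher and 1.01% lower in dKO ventricles. Markers of fibroblasts (3554 to 4099 and 3288 to 4063) and of smooth muscle (1589 to 1979 and 1839 to 2039.7) overlapped with no gene called by limma, and the part of these cells in the 2 calls was not tested.

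**Figure D4:**
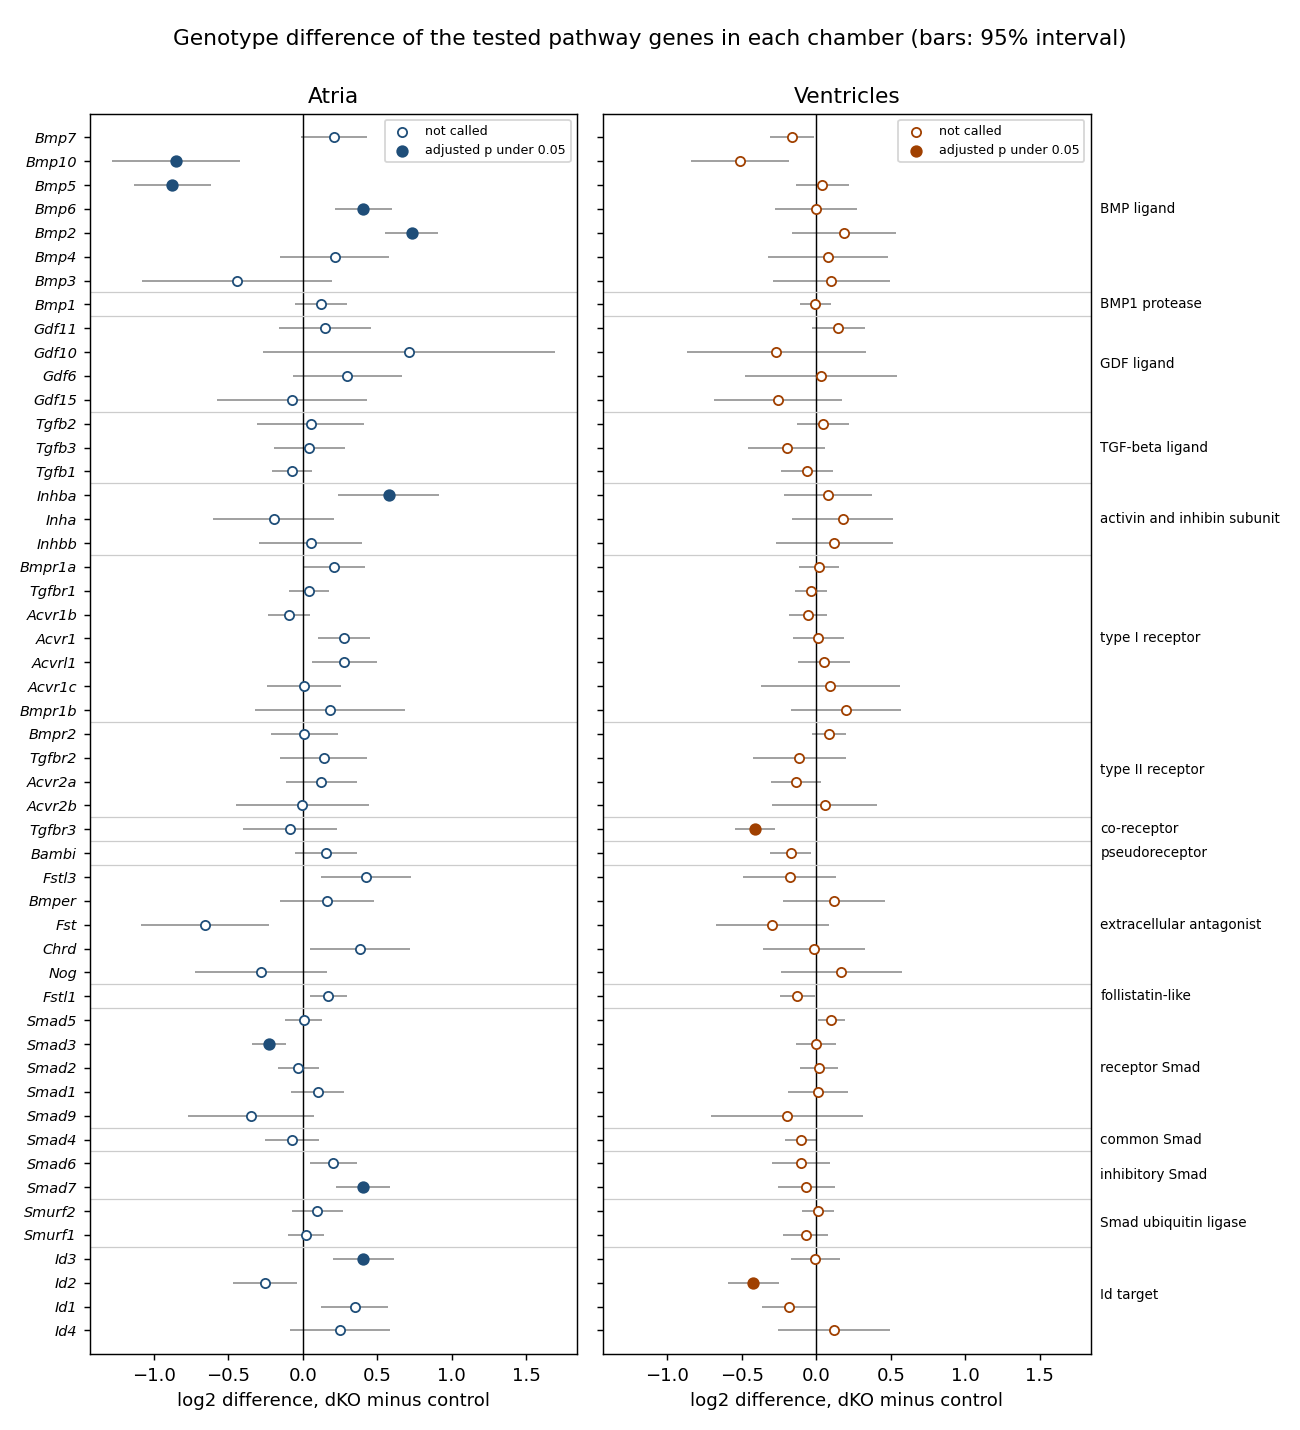
Log2 difference between dKO and control embryos for each tested member, in atria (left) and ventricles (right), from log2(CPM + 1), with 95% intervals as bars and filled points for members called at an adjusted p under 0.05. In atria Bmp2 lies farthest right among the called members at 0.73 and Bmp5 and Bmp10 farthest left, and in ventricles only Tgfbr3 and Id2 are filled.

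Whether the genotype difference itself differed between the chambers was tested directly, as the ventricular difference minus the atrial one. Of 51 members 4 (7.84%) were called, against 2.64% of all genes, 1.31% with a higher and 1.33% with a lower value in ventricles. The median over the members was -0.13 and over all genes -0.01. At an unadjusted p under 0.05 there were 14 members, and the share of all genes at that level was not computed. The number of called members was 1 without control embryo 1 or 3, 2 without dKO embryo 3 and 7 without dKO embryo 1. All called genes ranged from 238 to 470 when 1 embryo was left out, against 368 with all embryos. Bmp5 showed the largest of the 4 differences: it fell in dKO atria and stood at 20.3, 22.9, 23.5 and 23.0 CPM in control and 24.3, 20.0, 23.9 and 24.5 CPM in dKO ventricles (log2 difference 0.92 ± 0.14 (SE), adjusted p = 0.000627). In control embryos Bmp5 was higher in atria (34.7 CPM) than in ventricles (22.4 CPM), and in dKO embryos its atrial mean was 18.5 CPM against 23.2 in ventricles.

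The other 3 members ran the opposite way, with a lower value for ventricles. Smad7 rose in dKO atria and was not called in dKO ventricles, where it stood at 31.6, 25.2, 29.2 and 34.7 CPM in control and 29.9, 28.2, 29.5 and 26.9 CPM in dKO embryos (log2 difference -0.47 ± 0.12 (SE), adjusted p = 0.0324). Id1, a BMP target, was at 21.2, 24.2, 16.9 and 20.5 CPM in control atria, 28.0, 23.8, 26.8 and 27.2 in dKO atria, 22.1, 21.8, 22.1 and 23.4 in control ventricles and 20.2, 19.6, 21.8 and 16.8 in dKO ventricles (log2 difference -0.53 ± 0.13 (SE), adjusted p = 0.0265). The dKO embryos tended to the high side in atria and to the low side in ventricles, with some overlap in both chambers. Fstl1 was at 649.6, 645, 674 and 636 CPM in control atria, 711, 723, 729 and 774 in dKO atria, 683, 628, 664 and 643 in control ventricles and 626, 545, 621 and 607 in dKO ventricles (log2 difference -0.30 ± 0.07 (SE), adjusted p = 0.0242). Its dKO libraries lay above all controls in atria and below all controls in ventricles, and limma called it in neither chamber alone, while DESeq2 called it in atria.

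The call of Bmp5 was kept in all 17 alternatives run, and the other 3 were not. Smad7 lost its call without the embryo block (adjusted p = 0.0641), in edgeR (0.0821) and without control embryo 1 or 3 or dKO embryo 2, 3 or 4 (0.0703 to 0.121). Id1 lost its call in edgeR (0.0541) and without control embryo 1, 3 or 4 or dKO embryo 1 or 4 (0.0566 to 0.113), and Fstl1 in edgeR (0.0716), without any 1 control embryo or without dKO embryo 3 (0.0567 to 0.114). The remaining members called in atria did not reach the threshold for a difference between chambers: Bmp2 had -0.54, adjusted p = 0.125, Bmp6 -0.41, adjusted p = 0.213, Id3 -0.41, adjusted p = 0.087, Smad3 0.23, adjusted p = 0.11 and Inhba -0.50, adjusted p = 0.294. For Bmp10, which was lower in dKO embryos in both chambers by log2 values of -0.85 and -0.51, the difference between chambers was 0.34 (95% interval -0.21 to 0.89). Of the 2 members called in ventricles, Tgfbr3 had -0.33, adjusted p = 0.393 and Id2 -0.17, adjusted p = 0.631.

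Other genes of the pathway were taken from lists of 98 symbols, chosen with earlier results of these data known, of which 81 were tested. In atria 17 were called higher and 2 lower in dKO embryos (23.5% of 81 in all, against 7.47% of all genes, 4.04% higher and 3.43% lower). In ventricles 3 were called higher and 1 lower, where these shares were 0.989% and 1.01% of all genes. The genes for storage and release of latent TGF-beta accounted for 8 of the 17: of 14 tested genes 8 were called higher in dKO atria and 0 lower by limma, with a median log2 difference of 0.31 where 4.04% of all genes were called higher and their median was -0.005, while 1 of 14 was called in ventricles. Named here after their values were seen, Furin, a protease that processes the precursors of TGF-beta and BMP ligands, rose from 142 ± 11.7 to 214 ± 29.5 CPM (0.57, adjusted p = 0.00462), and Thbs1, whose product thrombospondin can release TGF-beta from its latent complex, from 35.5 ± 3.17 to 50.1 ± 5.24 (0.48, adjusted p = 0.00546). Fbn1, which encodes the microfibril protein fibrillin that holds latent complexes, rose from 239 ± 19.4 to 311 ± 35.7 CPM (0.37, adjusted p = 0.0219). The other 5 were Ltbp3, Ltbp4, Itgav, Itgb8 and Mmp2. The summed smooth muscle markers, of which Acta2 made up a large part, were higher in all 4 dKO atria than in all control atria. The fibroblast sums overlapped, as given above, and the part of these cells in these differences was not tested.

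Acta2 and Vwc2 had the smallest adjusted p of the listed pathway genes in dKO atria. Acta2, which encodes smooth muscle actin and responds to TGF-beta, is also a marker on the smooth muscle list, and rose from 446 ± 43.4 to 838 ± 104 CPM (log2 difference 0.90 ± 0.10 (SE), adjusted p = 0.000218). The mean sum of that list was 807 CPM in control and 1262 CPM in dKO atria, so Acta2 made up a large part of it. Vwc2, a secreted BMP-binding protein, rose from 0.870 ± 0.231 to 3.70 ± 0.402 CPM (log2 difference 1.33 ± 0.15 (SE), adjusted p = 0.000307). Its control atrial mean lay below the 1 CPM filter, which was set on the mean over all 16 libraries and so includes the dKO atria. Of the 13 tested TGF-beta response genes 0 were called in ventricles by limma, where 2% of all genes were called. In atria 2 of the 13 were called, where 7.47% of all genes were called. Of 13 BMP response genes 3 were called in dKO atria: Tbx2 (0.88, adjusted p = 0.00916) and Atoh8 (0.34, adjusted p = 0.0413) rose and Hey1 (-0.60, adjusted p = 0.00605) fell.

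In dKO ventricles the leading pathway genes were Tbx2, a repressor of chamber genes that is induced by BMP signals, which rose from 12.2 ± 1.09 to 20.6 ± 3.49 CPM (0.70, adjusted p = 0.00718), Tbx20, from 429.6 ± 24.5 to 547 ± 42.8 (0.35, adjusted p = 0.0109), and Twsg1, a chordin-binding modulator, which fell from 118 ± 2.98 to 97.4 ± 7.71 (-0.27, adjusted p = 0.0282). For the difference between chambers 1 of the 81 genes was called higher and 4 lower for ventricles (1.31% and 1.33% of all genes), led by Acta2 (-0.74, adjusted p = 0.00127), the BMP co-receptor gene Rgma (-0.99, adjusted p = 0.00194) and Tbx20 (0.46, adjusted p = 0.00664). Between control chambers 22 were higher and 27 lower in ventricles (60.5% of 81, against 46.9% of all genes, 26.4% higher and 20.5% lower), and the smallest adjusted p belonged to Hey2 (4.37, adjusted p = 7.11e-15), Hand1 (3.27, adjusted p = 3.84e-12) and Acta2 (1.59, adjusted p = 3.31e-11). Hey2 is also on the ventricular myocyte marker list, Acta2 on the smooth muscle list and Tbx20 on the valve and cushion list. Map3k7, a kinase downstream of TGF-beta and BMP receptors, was the 1 gene called among 24 intracellular regulators in dKO atria (-0.31, adjusted p = 0.0302), and none of the 24 was called in dKO ventricles by limma. Of all genes, 7.47% were called in atria and 2% in ventricles.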

How the data were processed

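Poly(A) RNA from atria and ventricles of 8 mouse embryos was sequenced as 60-base single reads, 1 library per chamber and embryo. The submitters' processing notes name cutadapt, RSEM 1.3.1 and GRCm38. For the annotation, gene filter, normalization and strand setting, the method is not given in the sources used here. The values deposited by the authors behave as CPM: in each library every value equalled a whole number of reads plus 0.5, times 1 step (100% of values, within 0.001 read), and the listed genes sum to less than the full scale. Whole reads were recovered this way, 7880189 to 22975051 per library.

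CPM values were tested as log2(CPM + 1) with limma 3.58.1 (R 4.3.3, mean-variance trend) over the 13950 genes averaging 1 CPM or more, with Benjamini-Hochberg adjustment and a threshold of 0.05. Each genotype comparison used 4 dKO and 4 control libraries of 1 chamber. The chamber comparison and the difference between chambers used all 16 libraries with the embryo as a random block, since titles tie both chambers to the same embryo (consensus correlation 0.108). Replicate numbers follow the order of the sample records and pair nothing across genotypes. edgeR 4.0.16 and DESeq2 1.42.0 on recovered reads, other pseudocounts, filters and scalings, title numbers and left-out libraries were alternatives. The limma fits were tested on simulated data before use. No pair of replicates agreed within sampling noise (chi-square per degree of freedom 6.47 to 25.7 over 24 pairs).

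Members, roles and lists were chosen with earlier results of these data known. Named genes were the members called in a dKO comparison, the 6 called members with the largest chamber difference each way, the 2 members of each role with the highest mean, and up to 3 further pathway genes per comparison with the smallest adjusted p, except a result that is not reported here. Coordinates and exon lengths came from GENCODE M21 (GRCm38), which matched 16103 of the 16118 genes. P-values of the genotype comparisons measure the spread between embryos. Those of the chamber comparison and of the difference between chambers also rest on the spread within embryos, pooled over control and dKO libraries.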

Additional observations from a re-analysis of the deposited data

Results flagged for a closer look

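In 15 of 204 groups of 4 libraries, 1 library lay far from the other 3 by Dixon's criterion, which flags about 1 in 20 groups by chance. In atria these were control replicate 3 for Acvr2a (34.3 CPM), control replicate 1 for Tgfb2 (108 CPM), dKO replicate 4 for Bmpr2 (99.3 CPM), Gdf10 (21.6 CPM) and Smurf2 (71.5 CPM), and dKO replicate 1 for Smad5 (85.7 CPM). In ventricles they were control replicate 3 for Bmpr1a (161 CPM), Inhba (20.7 CPM) and Smad3 (48.2 CPM), control replicate 4 for Bmp1 (73.3 CPM) and control replicate 1 for Smad9 (3.80 CPM). Among dKO ventricles they were replicate 2 for Acvrl1 (19.7 CPM) and Bmp5 (20.0 CPM) and replicate 4 for Smad2 (50.7 CPM) and Smad5 (82.2 CPM).

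The dKO difference itself differed between the chambers for 4 members in the limma test of that difference. Ventricle minus atrium, it was 0.92 on the log2 scale for Bmp5, -0.30 for Fstl1, -0.53 for Id1 and -0.47 for Smad7. Fstl1 was the member whose dKO libraries lay above all controls in 1 chamber and below all controls in the other.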

How the results depend on the processing

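No called direction named here reversed in the alternatives run. Bmp2, Bmp5 and Smad7 in atria kept their call in all of them, and so did, wherever they were tested, the 11 chamber differences named for their size. The smaller chamber calls of Tgfb2, Tgfbr3, Bmpr2, Bmp3, Bmpr1b, Smad9 and Nog were lost in some. The number of members called in atria was 13 with DESeq2 on recovered reads, 8 of them shared with limma. Over all genes DESeq2 called 1546 in atria and limma 1042. The number of members was 12 with the title number as a covariate (1392 genes), and 4 to 13 when 1 library was left out. On the recovered reads edgeR called 1031 genes in atria, 259 in ventricles, 6053 between chambers and 262 for the difference, and DESeq2 called 469 in ventricles. The 2 dKO and 2 control embryos with the same first title number gave 79 genes and 0 members by limma in ventricles. In the ventricular fit of all embryos 8 members had an unadjusted p under 0.05, and the share of all genes was not computed. In ventricles edgeR and DESeq2 each called 2 members. Leaving out 1 ventricle gave 1 to 3 members and 187 to 261 genes. For the difference between chambers edgeR, fitted without an embryo block, called 1 member, Bmp5, and leaving out 1 embryo gave 1 to 7 members and 238 to 470 genes. Without the replicate block limma called 28 members and 6160 genes between chambers and 3 members and 294 genes for the difference, so that Tgfb2 and Tgfbr3 lost the first and Smad7 the second (adjusted p = 0.0641); a fixed block in control libraries gave 36 members and 7205 genes between chambers. Atria and ventricles of one embryo are paired by title, and controls and dKO embryos are not. All genes called in atria ranged from 695 to 1201 when 1 library was left out. Where a call was lost the cause was not tested. The shallowest library, with 7880189 reads, is a dKO ventricle, and depth limits the members near 1 CPM there.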
